A study of Columba livia with 12 samples.

Results

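The genes described here are 60 well-expressed genes of the pigeon flight muscle whose median level was higher in trained, raced birds than in untrained birds. Their levels are given in CPM, a gene's count divided by all gene counts of its library and multiplied by 1000000. Genes were kept where the mean of the trained and the untrained median was at least 100 CPM and the untrained median at least 1 CPM, after the 100 genes with the highest untrained medians were set aside. Of 15392 genes in the files 1463 met these conditions, and the 60 with the largest log2 ratio of the trained over the untrained median, with 0.5 CPM added to each, are the members. They were thus chosen by the measured group medians. They are referred to by their rank in that ratio, from 1 to 60. Their levels, their ratios and the calls of a fit of the same contrast over all genes are therefore a description and no test of the members.

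The muscle sampled was the pectoralis of 12 pigeons (Columba livia) from a racing loft, each bird giving its own RNA-seq library. The 7 trained birds had earlier flight training, were basketed and taken to the release site on the eve of the race, and gave their samples once they had flown its 300 km. The 5 untrained birds were adults of that loft, kept and fed in the same way, with no racing training at any time. Beyond that mention of adults, the labels state no age or sex. Training, the race, basketing and transport came together in the trained group, so that their effects cannot be told apart.

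The pectoralis is the muscle of the wing's downstroke and makes up much of a pigeon's body. In pigeons most of its fibres are fast fibres rich in mitochondria, which sustain long flights mainly by burning fat. In vertebrate muscle, a long bout of exercise is followed by changes in messenger RNAs for fuel use, protein folding and turnover, signalling and repair, and training shifts the levels of many others. The files give locus tags in place of gene names, and none of the tags matched the 22830 genes of the gene table used here, so that no member can be given a name or a role. For the same reason the labelled tissue could not be checked against muscle genes or against markers of blood, vessels, connective tissue or fat. In bulk tissue, fewer cells of a type and less RNA per cell cannot be told apart.

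Gene counts ranged from 13611534 to 26876040 in trained libraries and from 17297318 to 29169918 in untrained libraries, so that even the lowest value of a member rested on 37 counts in a trained bird and 77 in an untrained bird. Among the libraries, 2 stand apart from their groups. Untrained bird 5 lies close to the trained birds on an axis from the untrained (0) to the trained medians (1) of the other birds. Over the genes that passed the level conditions it was at 0.934. Trained birds were at 0.624 to 1.26 and the other untrained birds at -0.145 to 0.095. Each gene is weighted here by the square of its log2 difference of medians. Genes with large differences, the members among them, thus count most, and the place in typical genes is not shown. Many results that rest on untrained bird 5 are given with and without it, and others only with it. Trained bird 13 had the fewest counts, 11655 detected genes against 12546 to 13206 in the other trained birds, and a scaling factor (TMM) of 0.752, where all other trained birds lay above 1. Replicates are separate birds of 1 loft.

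The members covered a wide range of levels. Their trained medians ran from 166 to 3130 CPM, with 409 CPM in the middle, and their untrained medians from 5.86 to 835 CPM, with 86.3 CPM in the middle. Of the 60, 14 had a trained median under 200 CPM, 23 lay between 200 and 500 CPM, 15 between 500 and 1000 CPM and 8 above 1000 CPM. The ratio of the medians was at least 8-fold in 6 members, at least 5-fold in 21, at least 4-fold in 32 and at least 3-fold in all 60. The ratio ended at 1.61 (log2) with rank 60 and stood at 1.60 for the next gene, outside the list, so that the limit cuts through a continuum. On the side of level, the lowest member had a mean of the medians of 100.9 CPM, and the nearest gene below the limit with as large a ratio had 99.6 CPM. In all, 160 genes under the limit had such a ratio, and so did 1 of the 100 most abundant genes, at 2.60 (log2).

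**Figure D1:**
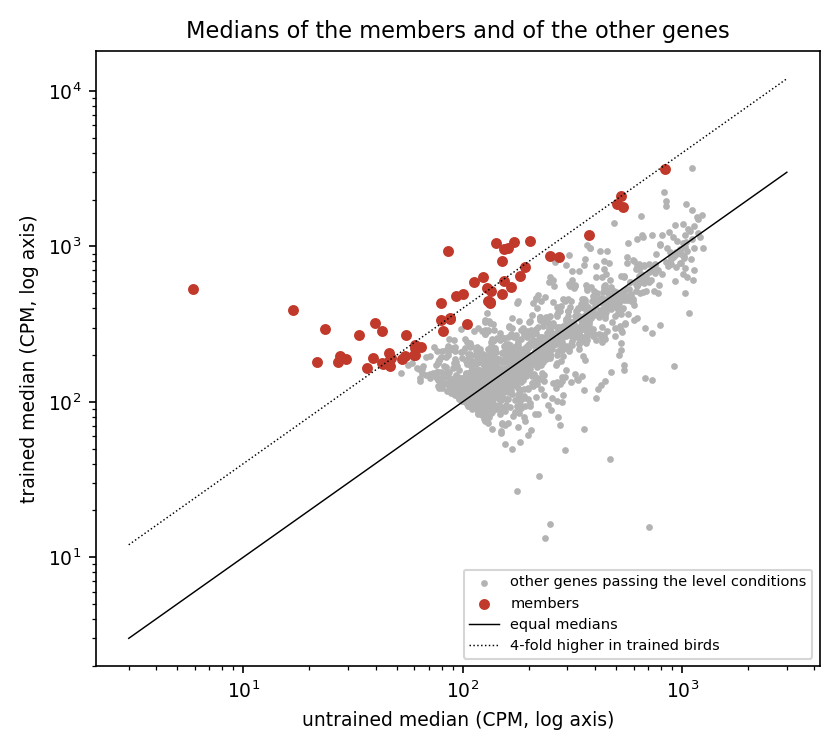
Trained against untrained median level (CPM, both axes logarithmic) for the 60 members (red) and the other genes that passed the level conditions (grey), with lines at equal medians and at a 4-fold higher trained median. The members lie along the upper left edge, with 32 of them at or above a 4-fold ratio and rank 1 far to the left at an untrained median of 5.86 CPM.

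Locus tag A306_00009634 had the largest ratio. It had 228 CPM in the lowest trained bird, a median of 534 CPM and 999 CPM in the highest trained bird, against 4.45, 5.86, 11.9, 244 and 5.05 CPM in untrained birds 2, 3, 4, 5 and 12. The ratio of the medians was 84.1-fold. Every trained bird was far above untrained birds 2, 3, 4 and 12, and only untrained bird 5 fell inside the trained range, just above the lowest trained bird. The mean was 606 ± 248 CPM in trained birds (SD, n = 7) and 54.3 ± 106 CPM in untrained birds (SD, n = 5), where the SD exceeds the mean because of bird 5. Without bird 5 the untrained mean was 6.81 ± 3.42 CPM (SD, n = 4). The fitted log2 fold change (edgeR) was 3.58 ± 1.05 (SE), and it was 6.57 ± 0.57 (SE) without untrained bird 5.

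Locus tag A306_00013071, of rank 40, had the highest trained median of the members. It had 1159 CPM in the lowest trained bird, a median of 3130 CPM and 3282 CPM in the highest trained bird, against 745, 1404, 695, 3377 and 835 CPM in untrained birds 2, 3, 4, 5 and 12. Trained birds 6, 10, 11 and 13 lay close together between 3130 and 3282 CPM, and bird 7 was lowest. Untrained bird 5 was above all 7 trained birds, and untrained bird 3 was above trained bird 7, so that the groups overlap at both ends. The fitted log2 fold change was 0.94 ± 0.43 (SE), and 1.55 ± 0.35 (SE) without untrained bird 5.

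Ranks 2 to 7 shared one arrangement, in which every trained bird exceeded untrained birds 2, 3, 4 and 12, with untrained bird 5 among the trained birds or, in rank 3, above them. Rank 2 had 175 CPM in the lowest trained bird, a median of 388 CPM and 499 CPM in the highest, against 5.95, 16.8, 11, 321 and 29.3 CPM in untrained birds 2, 3, 4, 5 and 12. Rank 3 had 115, 296 and 504 CPM as the lowest, median and highest trained values, against 21.6, 19.2, 23.6, 558 and 80.1 CPM in the untrained birds in the same order. In rank 3 untrained bird 5 was the highest of all 12 birds, and the other 4 untrained birds stayed below the lowest trained bird.

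Rank 4 had 290, 932 and 2314 CPM as the lowest, median and highest trained values, against 61.5, 63.8, 85.3, 309 and 228 CPM in untrained birds 2, 3, 4, 5 and 12. Its trained birds formed a low set at 290 to 347 CPM, birds 6, 10 and 13, and a high set from 932 CPM upwards. Rank 5 had 123, 180 and 388 CPM as the lowest, median and highest trained values, against 21.6, 15.9, 16.5, 277 and 28.1 CPM in the untrained birds. Rank 6 had 99.1, 324 and 587 CPM in trained birds, against 39.8, 37.6, 36.4, 314 and 62.2 CPM in the untrained birds. In ranks 5 and 6 untrained birds 2, 3 and 4 agreed closely with each other, and bird 5 lay at 277 CPM, above the trained median, and at 314 CPM, just under it. Rank 7 had 194, 269 and 571 CPM in trained birds, against 33.5, 30.3, 25.2, 302 and 68.6 CPM in the untrained birds.

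Rank 8 separated the groups in full. It had 788 CPM in the lowest trained bird, a median of 1052 CPM and 1801 CPM in the highest, against 81, 170, 142, 601 and 95.7 CPM in untrained birds 2, 3, 4, 5 and 12. Untrained bird 5 was again the highest untrained bird, but it stayed below trained bird 7, the lowest of its group. Rank 9 had 45.5, 197 and 349 CPM as the lowest, median and highest trained values, against 10.3, 27.5, 20.1, 132 and 50.2 CPM in the untrained birds, with trained birds 10 and 13 down at 45.5 and 66 CPM. Rank 60, the last, had 218, 317 and 515 CPM in trained birds, against 87.1, 103, 104, 467 and 142 CPM in the untrained birds. In rank 60 the lowest trained bird was still above untrained birds 2, 3, 4 and 12.

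**Figure D2:**
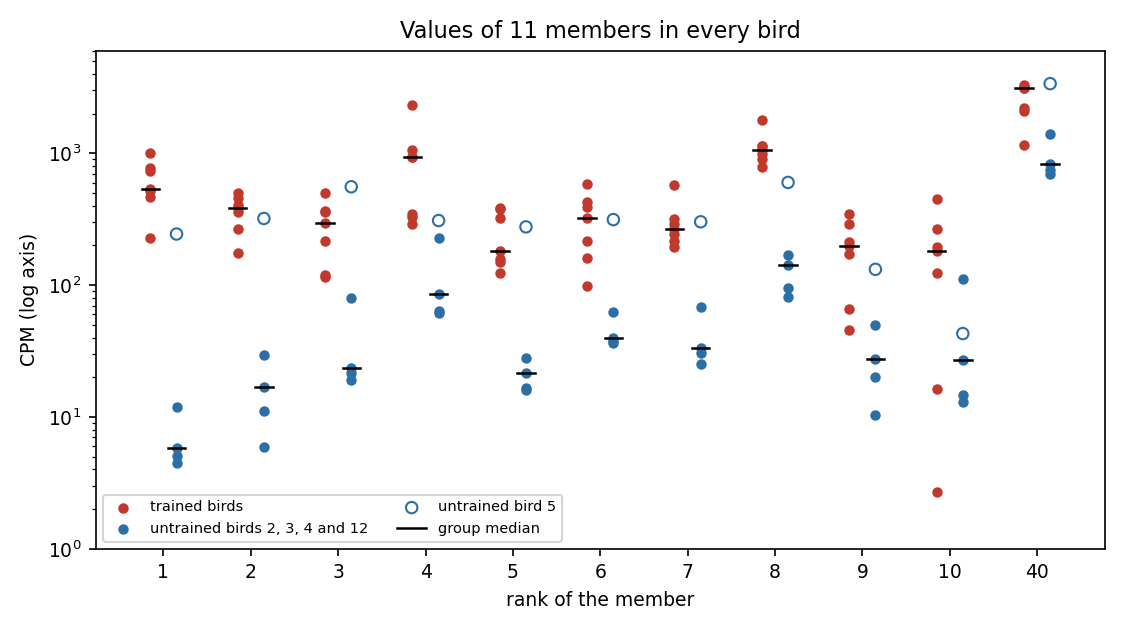
Level (CPM, logarithmic axis) of the members of rank 1 to 10 and 40 in each of the 7 trained birds (red), in untrained birds 2, 3, 4 and 12 (filled blue) and in untrained bird 5 (open blue), with black bars at the group medians. Untrained bird 5 lies among the trained birds in most of these members, reaching 3377 CPM in rank 40, and trained birds 10 and 13 drop to 16.3 and 2.72 CPM in rank 10.

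The lowest trained bird exceeded the highest untrained bird in 5 members, those of rank 8, 12, 29, 30 and 37, as it did in 1.12% of all genes tested and 1.16% of the genes that passed the level conditions. Rank 12 had 100 CPM in the lowest trained bird and 98.1 CPM in the highest untrained bird, the narrowest of these gaps. Rank 30 had 132 CPM in the lowest trained bird and 98.3 CPM in the highest untrained bird, and rank 37 had 344 and 332 CPM. In each of these 5 members the highest untrained bird was bird 5. Without untrained bird 5, 43 of the 60 members separated the groups, against 6.9% of all genes tested and 12.2% of those that passed the level conditions. Without untrained bird 5 and trained bird 13 together, 46 did, against 11.9% and 18.1%. The rule used this contrast, so nothing is read from these counts beyond the place of the 2 birds.

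In the fit of all 11047 genes with enough counts (edgeR quasi-likelihood test, Benjamini-Hochberg adjustment, threshold 0.05), 22 of the 60 members were called higher in trained birds, where 2.98% of all genes tested and 4.1% of those that passed the level conditions were. Among ranks 1 to 10, those of rank 4 and 8 were called and the others were not. In this fit the adjusted p was 0.055 in rank 1 and 0.19 in rank 40, so neither was called. The fitted log2 fold change was above 0 in all 60 members, from 0.17 to 3.58, with a median of 1.57 beside 0.04 over all genes tested. The number of members called moved with single libraries. It was 57 without untrained bird 5, where 9.77% of all genes were called higher, and 58 without untrained bird 5 and trained bird 13 together, where 14.3% were. Both birds stand apart from their groups in these same data, so nothing is read from the 57 and 58. The number was 6, 4, 0 and 1 without untrained bird 12, 2, 3 and 4, where 0.464%, 0.358%, 0.233% and 0.206% of all genes were called higher. In the edgeR fit without untrained bird 3, which called 0 members, 39 members had an unadjusted p under 0.05. The share of all genes under that p is not given here. As the members were chosen on this contrast, nothing is read from the 39. Without trained bird 11, 8 and 9 the members called were 7, 13 and 12. Of all genes, 0.748%, 1.73% and 1.52% were then called higher. With all birds DESeq2 called 40 of the 58 members to which it gave an adjusted p, and 6.98% of all genes to which it gave one. The 22 members were among those called without untrained bird 5 and among those called by DESeq2. The median log2 fold change of the members was 2.22 without untrained bird 5.

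The place of each bird can be read without this circularity when the rule is applied without that bird and the bird is then looked up in the 60 genes so chosen, which shared 49 to 57 genes with the members. On a log2 axis from the untrained median (0) to the trained median (1) of the other birds, the left-out trained birds 6, 7, 8, 9, 10, 11 and 13 had median positions of 0.994, 0.900, 0.971, 1.02, 0.747, 1.18 and 0.599. The left-out untrained birds 2, 3, 4 and 12 had -0.063, -0.087, -0.176 and 0.102, and untrained bird 5 had 0.936. Birds left out of the choice thus lay with their own group, apart from untrained bird 5, which lay within the range of the trained birds. The mean was 0.916 ± 0.191 in trained birds (SD, n = 7) and 0.142 ± 0.455 in untrained birds (SD, n = 5). The untrained mean and SD include untrained bird 5 and are not given without it.

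Counted by gene, the left-out trained birds 6, 7, 8, 9 and 11 were above the midpoint between the medians in 54 to 59 of their 60 genes. Trained bird 10 was above it in 41 and trained bird 13 in 32. Untrained bird 5 was above it in 58 of 60, and untrained birds 2, 3, 4 and 12 in 0, 1, 0 and 4. In bird 13 the genes divided, with 13 of 60 below the untrained median of the other birds. The place of bird 13 depended on scaling, since its median position was 0.824 with TMM-scaled CPM, where it was above the midpoint in 44 of 60 genes.

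**Figure D3:**
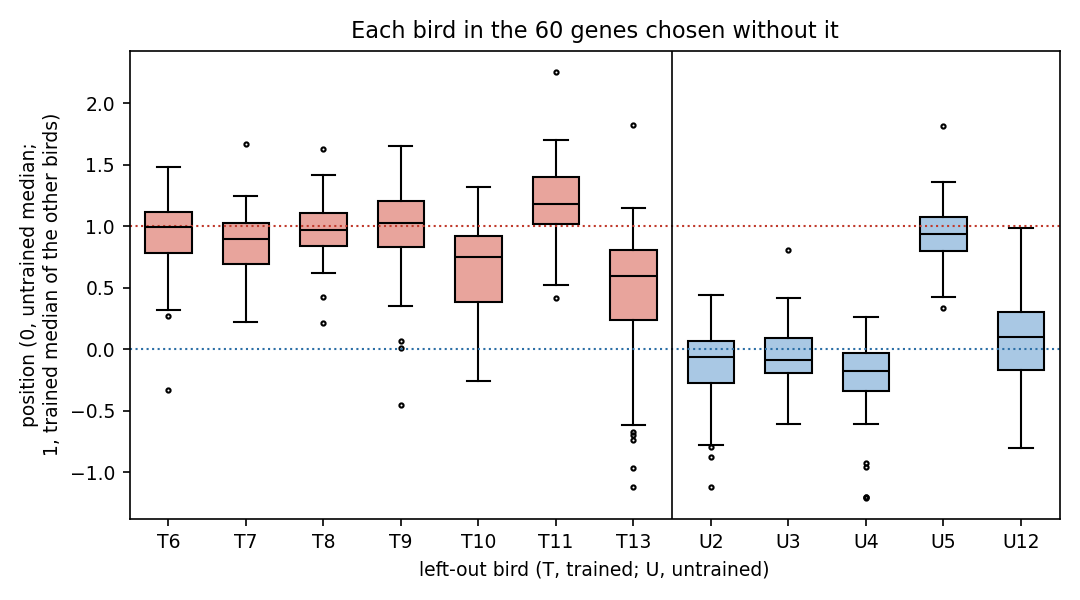
Position of each bird in the 60 genes chosen without it, on a log2 scale where 0 is the untrained and 1 the trained median of the other birds. Boxes span the quartiles with the median as a line, whiskers reach 1.5 times the interquartile range and points lie beyond, for trained (red) and untrained birds (blue). Untrained bird 5 has a median of 0.936, inside the trained range of 0.599 to 1.18, while the other untrained birds lie between -0.176 and 0.102.

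The same was done with the 60 genes of largest fall under the same level conditions. The left-out untrained bird 5 was at 0.858 in these, against 0.936 in the rising genes, and untrained birds 2, 3, 4 and 12 were at -0.069, 0.003, -0.104 and 0.227. Trained birds 10 and 13, the lowest of their group in the rising genes, were at 1.13 and 1.25 in the falling genes, beyond the trained median. With TMM-scaled CPM they were at 1.31 and 1.02 in the falling genes, and at 0.742 and 0.824 in the rising genes. Trained birds 6, 7, 8 and 9 were at 0.810 to 0.859 in the falling genes and 0.900 to 1.02 in the rising genes. Trained bird 11 was beyond the trained median in both lists, at 1.18 in the rising and 1.22 in the falling genes. Differences between the lists were not tested.

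Untrained bird 5 was the highest untrained bird in 58 of the 60 members, or 96.7%, and in 38.7% of the genes that passed the level conditions. It lay at or above the lowest trained bird in 55 members, above the trained median in 23 and above every trained bird in 8. It was more than 2 times the highest of the other 4 untrained birds in 52 members, and the median of that ratio over the 60 was 3.29. It was more than 2 times the median of those 4 birds in 98.3% of the members and 12.3% of the 1463 genes. For the counts against trained birds and against the highest other untrained bird, no share over those genes is given. Those counts place untrained bird 5 and are not read as particular to the members. In 5 members untrained bird 5 lay between the groups, and these were the 5 that separated them in full. It lay within the range of the other untrained birds in 2 members, those of rank 10 and 54. In both of these untrained bird 12 was the highest of its group, at 111 CPM in rank 10 and 536 CPM in rank 54. Rank 55 was one of the 8 members in which untrained bird 5, here at 717 CPM, was above every trained bird. Its trained birds ranged from 37 to 533 CPM with a median of 200 CPM, against 60.8, 15, 22.2 and 70.1 CPM in untrained birds 2, 3, 4 and 12. Its fitted log2 fold change was the smallest of the members, at 0.17 ± 0.89 (SE), with 2.24 when untrained bird 5 was left out and -0.28 when trained bird 7 was. The library of bird 5 had 20302677 counts, and the part of depth or of any other feature of this bird in these values was not tested.

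As a sum, the members held 2.26% to 5.48% of all gene counts in trained birds, with a mean of 3.49% ± 1.09 (SD, n = 7). In untrained birds the mean was 1.30% ± 1.19 (SD, n = 5), with 0.682%, 0.828%, 0.676%, 3.42% and 0.907% in birds 2, 3, 4, 5 and 12. Without bird 5 the untrained mean was 0.773% ± 0.113 (SD, n = 4). The trained birds with the largest shares were bird 11 at 5.48% and bird 9 at 4.31%, and those with the smallest were bird 13 at 2.26% and bird 10 at 2.61%.

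**Figure D4:**
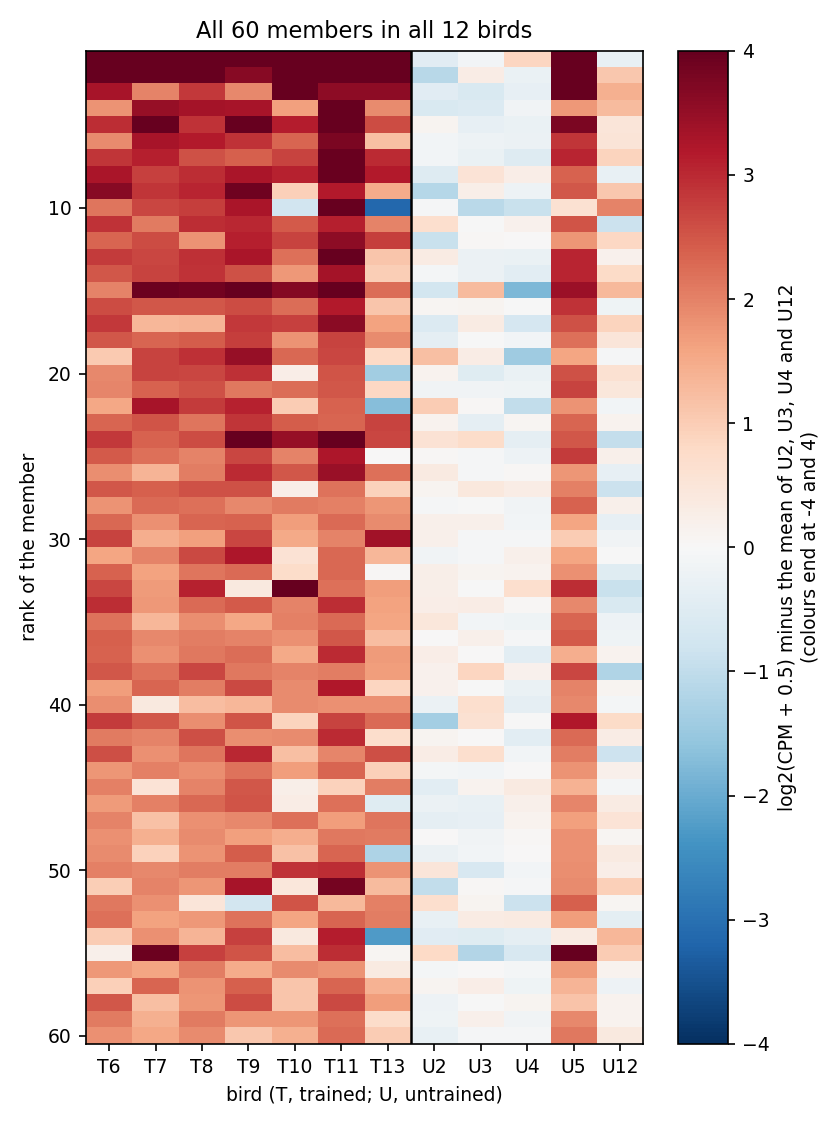
Level of all 60 members (rows, by rank) in all 12 birds (columns, trained left of the line), as log2(CPM + 0.5) minus the mean of untrained birds 2, 3, 4 and 12, with colours ending at -4 and 4. The column of untrained bird 5 is as red as those of the trained birds in nearly all rows, and the columns of trained birds 10 and 13 are pale or blue in single rows such as rank 10 and 20.

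Among the trained birds the members had a larger typical spread than the genes they were drawn from. The SD of log2(CPM + 0.5) between the 7 trained birds had a median of 0.688 over the members and of 0.417 over the 1463 genes that passed the level conditions. The highest trained bird was more than 4 times the lowest in 29 members and less than 2 times in 7. Of the 1463 genes, 298 and 535 were so, and of the 60 genes of largest fall 29 and 8. In the 4 untrained birds other than bird 5 the median SD was 0.412 over the members and 0.201 over the 1463 genes, and with bird 5 it was 1.07 over the members and 0.298 over the 1463 genes. A large difference of medians also favours genes that vary between birds, so that the spread is not wholly apart from the choice. The 60 genes of largest fall had a median SD of 0.698 between trained birds, close to that of the members.

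The most uniform members in trained birds were those of rank 28, 23 and 29. Rank 28 ranged from 446 to 633 CPM with a median of 539 CPM in trained birds, an SD of 0.188 on the log2 scale. Against this it had 128, 129, 119, 670 and 152 CPM in untrained birds 2, 3, 4, 5 and 12, so that untrained birds 2, 3, 4 and 12 were close together and bird 5 exceeded every trained bird. Rank 23 ranged from 157 to 256 CPM with a median of 191 CPM in trained birds, against 38.8, 27.2, 36.7, 178 and 39 CPM in the untrained birds. Rank 29 ranged from 119 to 189 CPM with a median of 179 CPM in trained birds, against 42.7, 42.8, 34.1, 111 and 29.3 CPM in the untrained birds. In rank 23 bird 5 was inside the range of the trained birds, and in rank 29 it was just under the lowest of them.

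The most uneven members in trained birds were those of rank 10, 54 and 22, and in all 3 trained bird 13 was lowest and bird 10 next to it. Rank 10 had 123, 181, 193, 269, 16.3, 448 and 2.72 CPM in trained birds 6, 7, 8, 9, 10, 11 and 13, against 27.1, 13, 14.7, 43 and 111 CPM in untrained birds 2, 3, 4, 5 and 12. Its highest and lowest trained birds differed 165-fold, and bird 13 lay under every untrained bird. Rank 54 had 436, 759, 546, 1431, 280, 1916 and 43.8 CPM in the trained birds in the same order, against 155, 153, 166, 270 and 536 CPM in the untrained birds. Rank 22 had 281, 952, 675, 819, 195, 490 and 29 CPM in the trained birds, against 196, 99.8, 48.3, 332 and 89.4 CPM in the untrained birds. In all 3 members trained bird 13 lay below the median of the untrained birds, and the trained birds other than 10 and 13 lay above it. Trained bird 10 lay below that median in rank 10 and above it in ranks 54 and 22.

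The other 2 most abundant members were those of rank 32 and 41. Rank 32 had 2445, 1453, 2103, 2260, 793, 2339 and 489 CPM in trained birds 6, 7, 8, 9, 10, 11 and 13, against 554, 514, 525, 1676 and 337 CPM in untrained birds 2, 3, 4, 5 and 12. Here trained bird 13 was inside the range of the untrained birds other than bird 5, and bird 10 was above it. Rank 41 had 619 CPM in the lowest trained bird, a median of 1867 CPM and 2307 CPM in the highest, against 129, 502, 327, 3048 and 561 CPM in the untrained birds. Rank 51 varied most among members with a trained median above 1000 CPM, with 7434 CPM in trained bird 11 and 5141 CPM in trained bird 9, 715 to 2069 CPM in the other trained birds, and 265, 537, 505, 1923 and 1018 CPM in the untrained birds.

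**Figure D5:**
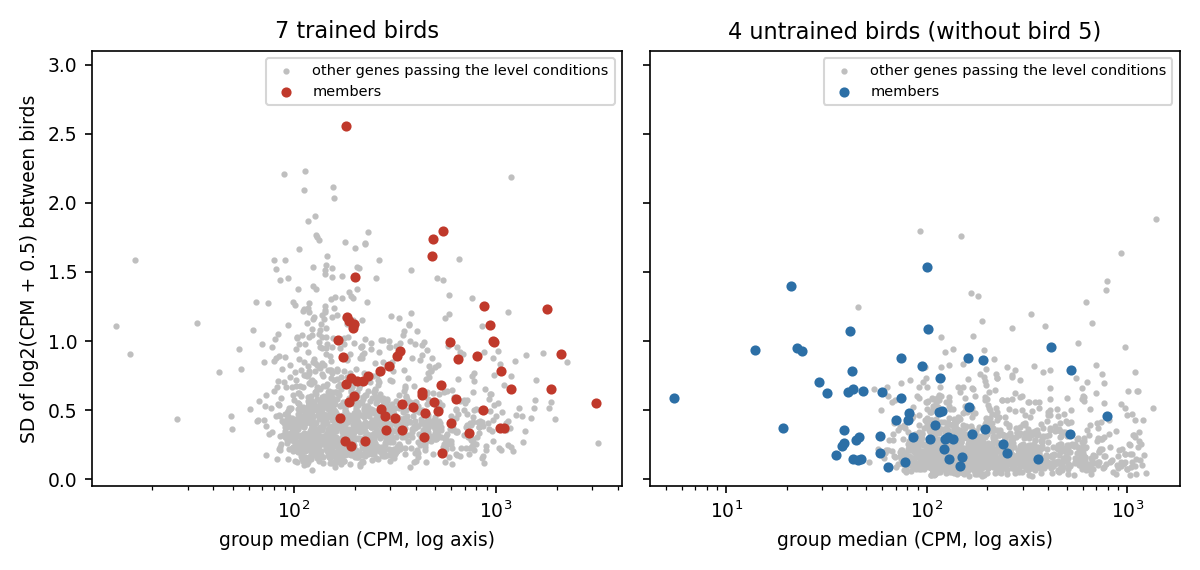
SD of log2(CPM + 0.5) between birds against the group median (CPM, logarithmic axis), for the 7 trained birds (left) and for the 4 untrained birds other than bird 5 (right), with members in colour and the other genes that passed the level conditions in grey. The members have a median SD of 0.688 in trained and 0.412 in these untrained birds, and rank 10 is highest among the trained birds at 2.56.

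The highest and lowest trained bird were not spread evenly over the members. Trained bird 11 was the highest of the 7 in 29 members, or 48.3%, and in 10.9% of the genes that passed the level conditions. Trained bird 9 was the highest in 13 members, or 21.7%, and in 12.4% of those genes. Birds 9 and 11 were the 2 highest in 19 members, or 31.7%, and in 6.7% of those genes. Trained bird 10 was the lowest in 13 members, or 21.7%, and in 4.1% of those genes. Trained bird 13 was the lowest in 28 members, or 46.7%, but it was also the lowest in 43.5% of those genes. On plain CPM, how often it was lowest is thus not particular to the members, but it lay further down in them. Its mean deviation from the mean of the trained birds was -0.788 (log2) over the members and -0.355 over those genes. Trained bird 13 was under 50% of the median of the other trained birds in 25 members, or 41.7%, and in 25.8% of those genes, and bird 10 was in 16 members, or 26.7%, and in 7.66% of those genes. All of these values are of plain CPM and are not given with TMM scaling, in which bird 13 had a factor of 0.752. With that scaling its left-out position moved from 0.599 to 0.824, so its place here may also depend on scaling.

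Across the 7 trained birds, Pearson's r between pairs of members had a median of 0.35 over 1770 pairs, beside 0.05 over all pairs of the 1463 genes. It was 0.31 over the pairs of the 60 genes of largest fall. With TMM-scaled CPM the median over the pairs of members was 0.27, and the other lists are not given on that scaling. Of the pairs of members 38.1% had r above 0.5 and 26.9% had r below 0. The values of a bird share its library, its depth and its scaling, and r over 7 birds is imprecise, so these are given as a description.

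The locus tags carry numbers, and close numbers can be read as neighbouring genes only if the annotation numbered genes along the scaffolds. No 2 members had consecutive numbers, and 4 of the 60 had another member within 5 numbers, as did 4 of the 60 genes of largest fall. The 4 were ranks 20 and 55, which lay 2 numbers apart, and ranks 23 and 46, which lay 5 apart. Across the 7 trained birds r was 0.75 between ranks 20 and 55 and -0.25 between ranks 23 and 46. The 93 other genes tested whose numbers came just before or after a member had a median log2 fold change of 0.20. It was 0.04 over all genes tested and 0.12 over those that passed the level conditions. Among these 93 genes, 9, or 9.68%, were called higher in trained birds (edgeR). The share was 2.98% of all genes tested and 4.1% of those that passed the level conditions. These values include untrained bird 5 and are not given without it, nor for genes next to those of largest fall. In trained birds the median r between a member and such a neighbour was 0.30, beside 0.24 over all 8503 pairs of consecutive tags tested.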

How the data were processed

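Each library came as the authors' deposited table of raw read counts per locus tag. TriReagent extraction and TruSeq RNA libraries are given by the labels' protocols. The tools named, with no role, in the submitters' processing notes are STAR, HTSeq, DESeq2, bcl2fastq 2.20 and FastQC 0.11.5. Build, annotation and strand setting were not given in the sources used here, so overlapping genes may share reads. The 5 summary rows of each file, which name no gene, were left out. The members and lists were chosen with earlier results of these data known. Groups come from the labels, which number the birds without pairing them. CPM was computed from the counts over all genes. Trained and untrained birds were compared over the whole table with edgeR 4.0.16 in R 4.3.3 (filterByExpr, TMM, robust quasi-likelihood F test, two-sided, Benjamini-Hochberg adjustment). The fit was also run on simulated counts. No simulated bird lay with the other group, so that run does not bear on untrained bird 5. The SE is the log2 fold change divided by the square root of F. P-values set the difference between the groups against the spread between birds, all of 1 loft. Alternatives were DESeq2 1.42.0, other scalings, no count filter, other forms of the rule and leaving out libraries. The counts of separated groups without single libraries were added after seeing the data. As no tag matched a gene symbol, 2 tags are printed, that of rank 1 and that of the highest trained median. Other members were given by rank: 1 to 10 and 60, the 3 of highest trained median and the 3 of largest and of smallest spread in trained birds. Ranks 12, 20, 30, 37, 46, 51 and 55 were singled out after their values were seen. Correlations across the 5 untrained birds were left out as too few. Counts of reads bound the counting error only.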

Additional observations from a re-analysis of the deposited data

Results flagged for a closer look

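Of 56 sets of values (28 measures in each group), 11 had a bird far from the others by an extreme-value rule (Dixon, 95%). Of these 11, 9 belong to untrained bird 5. The measures share birds and are not independent. Of the 28 measures, 24 are levels of single members, which were chosen on the group medians and some of them on their spread. The usual chance rate of about 1 in 20 therefore does not apply, and the 11 are a description only. Untrained bird 5 stood apart in the share of counts held by the members, at 3.42%, where no other untrained bird exceeded 0.907%, and in its position in genes chosen without it, at 0.936, where none exceeded 0.102. It stood apart in A306_00009634 at 244 CPM, where the next untrained bird had 11.9 CPM. It stood apart in the members of rank 5 at 277 CPM, rank 6 at 314 CPM, rank 23 at 178 CPM, rank 28 at 670 CPM, rank 29 at 111 CPM and rank 60 at 467 CPM. In those 6 members the highest other untrained bird had 28.1, 62.2, 39, 152, 42.8 and 142 CPM. Untrained bird 3 stood apart in its total of 29169918 counts, and trained bird 13 in its 11655 detected genes, against at least 12546 in the other trained birds. What set these birds apart was not tested.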

How the results depend on the processing

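The count of genes called over the whole table, 713 in both directions, was 1691 with DESeq2, 2977 without both untrained bird 5 and trained bird 13, and 111 to 1896 with 1 library left out. The members called higher were 40 with DESeq2, 58 without both birds, and 0 to 57 with 1 library left out. Their median log2 fold change was 2.27 without both birds and 1.41 to 2.22 with 1 library left out, and members with full separation were 46 and 5 to 43. DESeq2's size factors, total counts alone and no count filter kept all of these calls within 1.5 times. Applying the rule with group means kept 39 of the 60 members, a level minimum of 50 CPM 36 and of 200 CPM 35. TMM-scaled CPM kept 56, leaving out 1 library 49 to 57 and leaving out both birds 52. With the 100 most abundant genes out of the total the share of counts was 5.35% in trained and 2.11% in untrained birds. With 1 bird left out it was 3.16% to 3.70% in trained and 0.773% to 1.46% in untrained birds. TMM-scaled CPM moved the position of trained bird 13 to 0.82. With 1 bird left out the median r across trained birds was 0.22 to 0.40, and the median SD was 0.61 to 0.731 in trained and 0.412 to 1.19 in untrained birds. Members with another within 1 tag number were 0, and within 20 they were 10. Of the 24 members followed singly, 1 changed sign, rank 55, in 5 of 12 fits with 1 library left out (-0.28 to 2.24). In untrained birds these shares and spreads rest on bird 5. The causes were not tested. No paired analysis was possible because the groups share no replicate number. The lowest count of a member in any bird was 37.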
